A study of Mus musculus with 7 samples.

Results

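The genes described here are 5 members of the Myc transcription factor network, Mycn, Myc, Max, Mxi1 and Mnt, chosen by gene symbol among the 12071 symbols of the deposited expression table. All 5 were present, in 8 of the 15296 transcript rows, and for each the row with the highest mean was used. The cells were CCE, a mouse embryonic stem cell line kept without feeder cells, sampled on days 1 to 6 of culture with 5 µM retinoic acid and no leukemia inhibitory factor (LIF, a cytokine that keeps mouse stem cells pluripotent), and on day 0 with LIF and the vehicle DMSO. Each of the 7 days had 1 library of ribosomal-RNA-depleted RNA, so no day had a replicate, and it is not stated if each day was its own culture. The absence of LIF, the retinoic acid and the days in culture coincide and cannot be told apart.

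Myc and N-Myc (encoded by Mycn) are basic helix-loop-helix leucine zipper proteins that bind the E-box, the DNA word CACGTG, as pairs with Max and activate genes of growth, ribosome assembly and the cell cycle. Mxi1 and Mnt pair with the same Max protein, occupy the same sites and repress through the Sin3 corepressor. In mouse embryonic stem cells Myc and N-Myc are known to cover for each other in holding growth and self-renewal, and Myc is a known target of the LIF-STAT3 pathway.

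The values are log2 read values per transcript, scaled by the authors to nearly the same total in each library and not divided by transcript length. They could be turned back into whole reads, 10280938 on day 0 and from 7194325 on day 6 to 17923852 on day 4 over the listed transcripts. The members had from 39 reads (Mnt on day 6) to 1524 reads (Mnt on day 4) in a library. The day 6 library stood apart. The day 6 minus day 5 differences of 7242 genes had a Spearman rho of −0.78 with transcript length, against −0.050 to 0.26 for the other daily steps, and the median gene was 0.88 log2 units lower on day 6 than on day 0, against medians within 0.086 of 0 on days 1 to 5. Every trend is therefore given over days 0 to 6 and over days 0 to 5.

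The labels call day 0 stem cells and later days differentiated stem cells, and the pluripotency markers were lower on the later days. The summed level of 5 pluripotency markers (Pou5f1, Sox2, Nanog, Zfp42 and Esrrb), in reads per kilobase of transcript scaled to the library's listed reads (RPKM), was 18.9 on day 5 and 1430 on day 0. That of 5 extraembryonic endoderm markers (Gata4, Gata6, Sox17, Sox7 and Dab2) was 244 on day 5 and 8.13 on day 0, and that of 4 fibroblast markers (Col1a1, Col3a1, Thy1 and Pdgfrb) 141 on day 5 and 11.0 on day 0. Among the fibroblast markers Col1a1, Col3a1 and Pdgfrb were higher on day 5, and Thy1 was lower, at 19 reads on day 5 and 113 reads on day 0. Of 3 neural progenitor markers (Sox1, Pax6 and Nes) the sum was highest on day 2, at 26.0, against 6.70 on day 0 and 15.4 on day 5. These 3 were highest on different days, Sox1 on day 1, Pax6 on day 2 and Nes on day 3. On day 5 Nes and Pax6 were above day 0, and Sox1 was below it, at 33 reads against 49 reads. No marker was at the lowest count of 1 read on days 0 to 5, and the part of a changing cell mixture in the values below was not tested. In these bulk samples fewer cells of a type and less RNA per cell cannot be told apart.

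The 2 Myc genes started at almost the same level and took different courses. Myc was lower on each day through day 4 than on the day before and 9.04-fold lower on day 5 than on day 0, while Mycn was 10.3-fold lower on day 1 and only 1.49-fold lower on day 3. Mxi1 was 2.23-fold higher on day 5 than on day 0. Max and Mnt stayed within 1.52-fold of day 0 through day 5, Max below it on each day and Mnt above it from day 2.

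**Figure D1:**
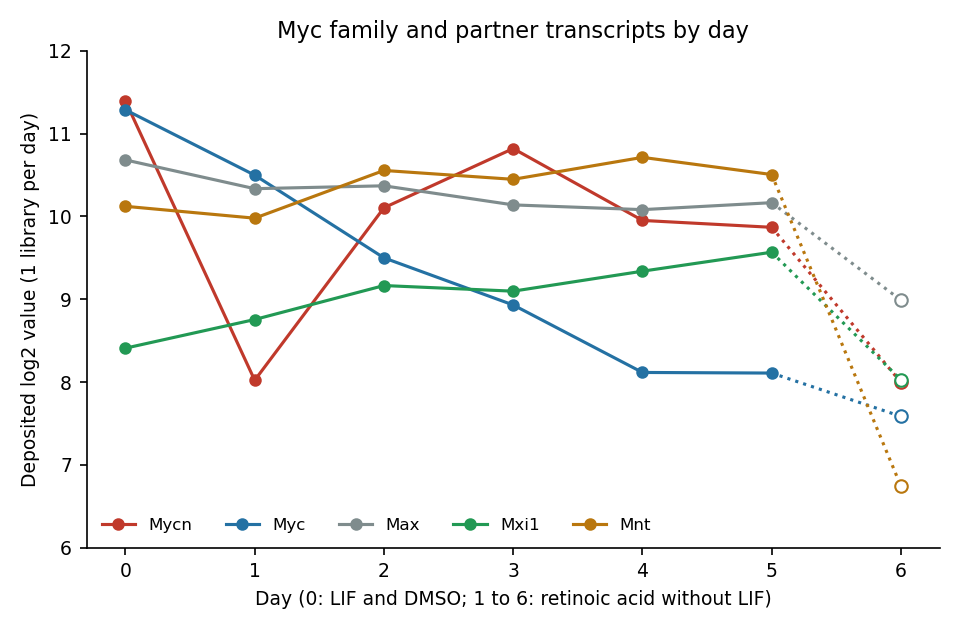
Deposited log2 values (vertical axis) of the 5 members by day (horizontal axis), 1 library per day; open circles and dotted lines mark day 6, the library that stood apart with transcript length. Mycn has its low on day 1 at 8.02 and a second high on day 3 at 10.82, Myc runs down to 8.11 on day 5, and Mxi1 runs up to 9.57 on day 5.

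Mycn (NM_008709, chromosome 12, 12942898 to 12948642 on the minus strand in mm9, 2599 bases) had log2 values of 11.39, 8.02, 10.10, 10.82, 9.95, 9.87 and 7.997 across days 0 to 6. It was thus highest before treatment, lowest among days 0 to 5 on day 1, and partly back by day 3. On day 1 it had 151 reads, against 1399 on day 0, a log2 difference of −3.37 (95% counting interval −3.62 to −3.13), and among the 7242 genes past the expression filter only 2 had a lower one. Genes at least 2-fold lower on day 1 made up 1.96% of all genes tested and genes at least 2-fold higher 6.06%. Mycn was the 1 member among them, on the lower side.

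The low was followed by a partial return. On day 2 Mycn stood 4.23-fold above day 1 (log2 difference 2.08, interval 1.82 to 2.35), a larger upward step than that of 98.1% of genes. On day 3 it stood another 1.64-fold above day 2 (0.71, interval 0.57 to 0.86). On day 4 it was 1.82-fold below day 3 (−0.87, interval −1.003 to −0.73), and only 0.677% of genes had a lower difference at that step. The day 5 value was within counting error of day 4 (−0.083, interval −0.22 to 0.057). On day 3 Mycn remained below day 0 (−0.57, interval −0.70 to −0.45), and on day 5 it was 2.88-fold below it (−1.52, interval −1.65 to −1.40).

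Such a course is not a line, and limma's test of a straight line on day called no slope for Mycn, at −0.24 ± 0.21 (SE) log2 units per day over days 0 to 6 (adjusted p = 0.487) and −0.032 ± 0.24 over days 0 to 5 (adjusted p = 0.921). The F-test of a curve on day gave adjusted p values of 0.503 over days 0 to 6 and 0.899 over days 0 to 5. Without day 0 the slope over days 1 to 5 was 0.35, the other direction (adjusted p = 0.267), and the F-test called the rise and fall that remained (adjusted p = 0.0190). No fit with 1 parameter per day can be tested with 1 library a day, so the low on day 1 rests on a single library and its counting interval.

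The Mycn promoter is shown because its sequence sets it apart from the promoters of Max, Mxi1 and Mnt. No promoter was matched to Myc, so Myc could not be compared. The 250 bases before the RefSeq start (GRCm38.p6, chr12:12941837-12942086, minus strand) hold 3 matches to the E2F-type words TTTGGCGC and TTTCGCGC, which are in capitals (the first 2 matches form 1 run), and no CACGTG. E2F proteins are cell-cycle transcription factors, and E2F sites in this promoter are known.

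Mycn promoter: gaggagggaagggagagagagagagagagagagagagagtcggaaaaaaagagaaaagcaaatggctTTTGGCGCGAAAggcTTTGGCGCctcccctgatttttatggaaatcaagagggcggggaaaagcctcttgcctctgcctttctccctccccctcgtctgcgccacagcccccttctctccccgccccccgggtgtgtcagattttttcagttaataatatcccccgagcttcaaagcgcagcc

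The matches start 183, 179 and 168 bases before the start, and the first 2 overlap on opposite strands. On either strand and over the whole window of 300 bases, which runs 50 bases past the start, 0.813% of the 32851 promoter windows in the table held an E2F-type word. Of the 5847 genes tested that had a window, 2.00% held one in any of theirs. Of the members, 4 had windows (all but Myc, which was not searched), and Mycn was the 1 of these with this word. A match describes the letters and is no measured site.

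Myc (NM_010849, chromosome 15, 61816895 to 61821916 on the plus strand in mm9, 2402 bases) had log2 values of 11.29, 10.50, 9.50, 8.93, 8.12, 8.11 and 7.59 across days 0 to 6. Each library through day 4 was below the one before it by more than counting error, and day 5 was level with day 4 (log2 difference −0.0073, interval −0.27 to 0.26). On day 1 the difference from day 0 was −0.79 (interval −0.92 to −0.66), with 840 reads against 1300. By day 5 it was −3.18 (interval −3.39 to −2.97), with 231 reads, and 0.511% of genes had a lower one.

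The slope of Myc was called in both courses. It fell by 0.67 ± 0.063 (SE) log2 units per day over days 0 to 5 (limma adjusted p = 0.00196) and by 0.62 ± 0.073 over days 0 to 6 (adjusted p = 0.0156). Falling genes made up 26.8% of all genes tested over days 0 to 5 and 3.78% over days 0 to 6. The call for days 0 to 5 held with each library left out (slopes from −0.79 to −0.62). The call for days 0 to 6 was lost without day 0 (adjusted p = 0.126), day 1 (0.108), day 2 (0.0545), day 3 (0.0524) or day 4 (0.0591), and with quantile normalization (0.0803), while the slope stayed at or below −0.51. The F-test with a curve also called Myc, at adjusted p = 0.00125 over days 0 to 5 and 0.0109 over days 0 to 6. That second call was lost without day 0 (0.0661), day 1 (0.0505), day 3 (0.0516) or day 4 (0.0614).

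**Figure D2:**
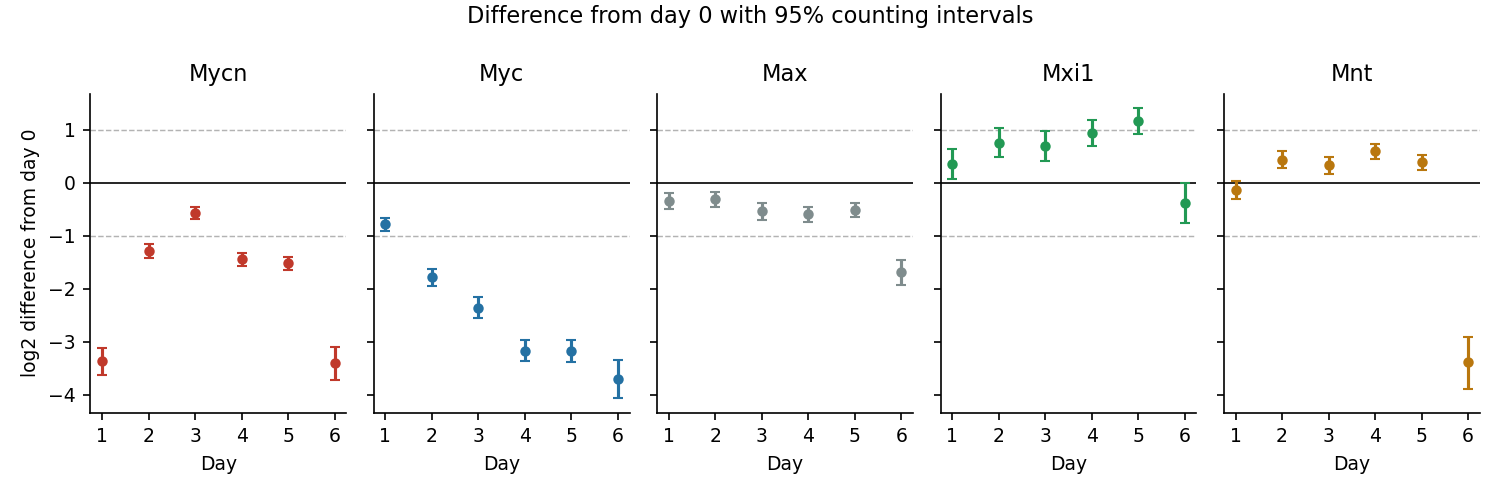
log2 difference of each later day from day 0 (vertical axis) by day (horizontal axis) for each member, with exact binomial 95% intervals that cover counting error only; dashed lines mark 2-fold. Mycn is at −3.37 on day 1 and −0.57 on day 3, Myc runs down to −3.18 on day 5, and Mxi1 is at 1.16 on day 5, past 2-fold as deposited and at 0.81 to 0.97 with the length correction, median-centring or quantile normalization.

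Per transcript length the Myc genes were equal on day 0, at 52.6 RPKM for Myc and 52.4 RPKM for Mycn. On day 1 Myc held 30.5 RPKM and Mycn 5.07 RPKM. The order turned on day 2, at 15.3 RPKM for Myc and 21.5 RPKM for Mycn, and on day 5 Myc was at 5.83 RPKM and Mycn at 18.2 RPKM. Mycn made up 49.9% of the 2 together on day 0, and 14.2%, 58.4%, 77.4%, 76.7% and 75.8% across days 1 to 5. The sum of both was 105.0, 35.6, 36.8, 45.5, 25.2 and 24.1 RPKM across days 0 to 5. On day 1 the larger part of the sum was Myc, and from day 2 on it was Mycn.

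**Figure D3:**
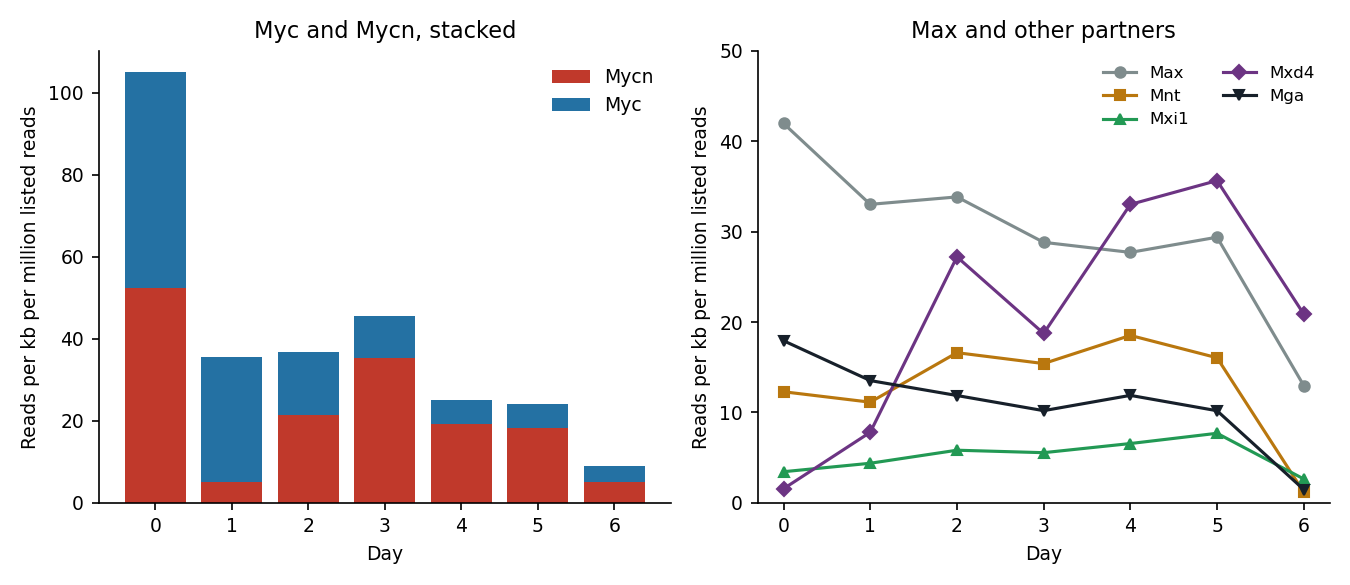
RPKM, reads per kilobase scaled to the library's listed reads (vertical axes) by day (horizontal axes), 1 library per day, as stacked bars for Mycn and Myc (left) and as lines for Max, Mnt, Mxi1, Mxd4 and Mga (right). The bars sum to 105.0 on day 0 and 24.1 on day 5, and Mxd4 is the lowest of the 5 lines on day 0 and the highest on day 5; day 6 is the library that stood apart with transcript length.

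Max, the shared partner (NM_001146176, chromosome 12, 78038255 to 78063235 on the minus strand in mm9, 1982 bases), had log2 values of 10.68, 10.34, 10.37, 10.14, 10.08, 10.17 and 8.99 across days 0 to 6. Its range over days 0 to 5 was narrow, with all 5 later days below day 0 and their counting intervals below 0. The difference from day 0 was −0.35 on day 1 (interval −0.49 to −0.20) and −0.52 on day 5 (interval −0.65 to −0.38), and 29.1% of genes had a lower one on day 5. Its slope was not called, at −0.10 ± 0.037 over days 0 to 5 (adjusted p = 0.0560) and −0.20 ± 0.074 over days 0 to 6 (adjusted p = 0.137). For days 0 to 5 it was called with median-centring (adjusted p = 0.0300) and with quantile normalization (0.0308). It was −0.066 with the length correction (adjusted p = 0.155) and −0.063 without day 0 (0.308). The second listed Max transcript (NM_008558, 2010 bases) ran beside it, at 10.09 on day 5 and 10.63 on day 0, and the transcripts share reads. GENCODE places 1 other gene on the same strand over Max.

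A CACGTG lies across the RefSeq start of Max, its first base 3 bases before it, and is shown in capitals in 30 bases of GRCm38.p6 (chr12:76962234-76962263, minus strand).

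Max start: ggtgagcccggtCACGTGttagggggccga

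Per length Max was below both Myc genes on day 0, at 42.0 RPKM. It was the most abundant member on days 1, 2, 4 and 5, at 27.7 to 33.8 RPKM, and below Mycn on day 3, at 28.8 RPKM. With the sum of Myc and Mycn as the measure, Max was at 0.40 of it on day 0, and 0.93, 0.92, 0.63, 1.10 and 1.22 across days 1 to 5. These are ratios of transcripts, and protein was not measured.

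Mxi1 (NM_010847, chromosome 19, 53403902 to 53450300 on the plus strand in mm9, 5002 bases) was the lowest member per length on days 0 to 3, at 3.44 RPKM on day 0. On day 1 it was at 4.38 RPKM, close to Mycn at 5.07 RPKM. Its log2 values were 8.41, 8.76, 9.17, 9.10, 9.34, 9.57 and 8.03 across days 0 to 6. All of days 1 to 5 lay above day 0, with counting intervals above 0. On day 5 the difference was 1.16 (interval 0.92 to 1.41), with 635 reads against 177, and 18.3% of genes had a higher one.

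Mxi1 rose by 0.21 ± 0.040 (SE) log2 units per day over days 0 to 5 (limma adjusted p = 0.00649), where rising genes made up 25.7% of all genes tested. The call held with each library left out (highest adjusted p = 0.0407). Over days 0 to 6, where 1.6% of genes rose, its slope was 0.023 ± 0.11 (adjusted p = 0.903), and it was 0.26 (adjusted p = 0.0280) after a correction for transcript length. The F-test called Mxi1 over days 0 to 5 (adjusted p = 0.0121), though not without day 0 (0.0599), day 4 (0.0551) or day 5 (0.0592). Its day 6 value was 0.38 below day 0 as deposited and 1.90 above it after the length correction, so the day 6 direction flips with the scaling.

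The other Mxi1 transcripts gave the same picture. NM_001008542, which begins upstream at 53384995, had 9.62 on day 5 and 8.30 on day 0, and NM_001008543 had 9.52 on day 5 and 8.24 on day 0. The 3 share reads. GENCODE places 2 genes that overlap Mxi1 on the opposite strand. Since the sources used here give no strand setting for the counting, reads of those genes cannot be told apart from those of Mxi1.

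Mnt (NM_010813, chromosome 11, 74644425 to 74659227 on the plus strand in mm9, 4592 bases) had log2 values of 10.12, 9.98, 10.56, 10.45, 10.71, 10.51 and 6.74 across days 0 to 6. Day 1 was within counting error of day 0 (−0.14, interval −0.31 to 0.025), and days 2 to 5 lay above it, by 0.33 to 0.59. The slope was not called, at 0.11 ± 0.047 over days 0 to 5 (adjusted p = 0.0797; 0.075 with the length correction, 0.214) and −0.32 ± 0.22 over days 0 to 6 (adjusted p = 0.370). On day 6 Mnt had 39 reads and was 13.6-fold below day 5 (log2 difference −3.76, interval −4.26 to −3.30), and 9.86% of genes had a lower difference at that step. After the length correction it was still below day 0 on day 6, by −1.22.

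The Mnt promoter is shown because it holds the E-box word. Its 250 bases before the RefSeq start (GRCm38.p6, chr11:74830674-74830923, plus strand) hold 1 CACGTG, in capitals, 123 bases before the start.

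Mnt promoter: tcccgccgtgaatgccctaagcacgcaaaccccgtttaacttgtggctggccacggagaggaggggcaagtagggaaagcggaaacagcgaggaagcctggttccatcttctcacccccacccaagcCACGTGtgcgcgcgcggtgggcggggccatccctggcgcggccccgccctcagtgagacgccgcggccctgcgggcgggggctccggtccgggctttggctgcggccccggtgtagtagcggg

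Of the 4 members with a promoter window, 2 held CACGTG within the 300 bases, Max and Mnt. The word was in 7.15% of all 32851 windows and in any window of 13.0% of the 5847 tested genes that had one.

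As a ratio per length, Mxi1 and Mnt together were at 0.15 of Myc and Mycn together on day 0, and 0.44, 0.61, 0.46, 1.00 and 0.99 across days 1 to 5. The ratio dipped on day 3 with the second high of Mycn. Mxi1 and Mnt together held 23.7 RPKM on day 5 and 15.7 RPKM on day 0, and the Myc genes 24.1 RPKM on day 5 and 105.0 RPKM on day 0. The Max-binding repressors Mxd4 and Mxd1, described below, are not in this sum. With the length correction the log2 difference of day 5 from day 0 was 0.81 for Mxi1 (1.16 as deposited) and 0.10 for Mnt (0.38 as deposited).

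Each member's call or size is set against the whole table. Of the 5 members, 1 rose and 1 fell over days 0 to 5, where 52.5% of all genes were called in one direction or the other, and 1 fell over days 0 to 6, where 5.39% were called. The F-test called 2 members over days 0 to 5 (52.4% of all genes) and 1 over days 0 to 6 (35.0%). At least 2-fold lower than day 0 were 1 member on day 1, 2 on day 2 (Mycn and Myc, 6.34% of all genes), 1 on day 3 (Myc, 9.85% of all genes), 2 on day 4 (13.3%) and 2 on day 5 (14.1%). At least 2-fold higher were 0 members on day 2 (15.6% of all genes), 0 on day 3 (17.3%), 0 on day 4 (20.6%) and 0 on day 6 (19.0%), and on day 5 it was Mxi1 (20.9%). Mxi1 was under 2-fold on day 5 with the length correction (log2 difference 0.81), median-centring (0.97) and quantile normalization (0.82). On day 6, 4 members were at least 2-fold lower, as were 47.6% of all genes. Of the 5, Mycn, Myc and Max lay below day 0 on days 1 to 5, Mxi1 above it on those days and Mnt above it on days 2 to 5, under the deposited scaling and all 5 alternatives tried.

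Among members the courses over days 0 to 5 were alike or opposite in pairs. As a description over 6 libraries, Pearson's r was 0.91 between Myc and Max, −0.96 between Myc and Mxi1, −0.85 between Myc and Mnt and 0.81 between Mxi1 and Mnt. Mycn had an r of 0.042 with Myc and lay between −0.14 and 0.30 with the others. Over all 7 libraries r was −0.22 between Myc and Mxi1 and 0.36 between Myc and Mnt. The points are the same libraries and share their scaling.

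The genes most like Mycn over days 0 to 5 were Tdh, threonine dehydrogenase (r = 0.97), Vrk3 (0.96), Snx18, a sorting nexin (0.96), and Txndc17 (0.95). Tdh had log2 values of 12.49, 6.91, 9.73, 10.74, 10.36 and 9.35 across days 0 to 5, a dip and return like that of Mycn, while Vrk3 varied only between 8.98 and 9.40. With day 6 included Tdh had an r of 0.84 and Txndc17 one of −0.39. Nearest to Myc were Wdr73, the chaperonin subunit gene Cct5, Guk1, guanylate kinase, and Slc25a5, a mitochondrial ADP/ATP carrier, each with an r of 1.00 over days 0 to 5. Their range was narrower, as in Cct5, which stood at 12.64 on day 5 and 13.76 on day 0. Nearest to Mxi1 were Nisch, Gtpbp2, Csnk1d and Tbcel (each 1.00), nearest to Max were Zan, Adam23, Skp1a and Gm3258 (0.98 to 0.99), and nearest to Mnt were AU019823, Zfp704, Dazap2 and Tbc1d20 (0.98 to 0.99).

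The wider network of Max and of Mlx, a Max-like protein, held 8 further genes, all in the table, of which 4 passed the filter. Mxd4, a Max-binding repressor related to Mxi1, rose and Mga, a large Max partner that also has a T-box, fell over days 0 to 5. That is 1 of 4 in each direction, beside 25.7% of all genes rising and 26.8% falling. Mlx (slope −0.11, adjusted p = 0.0530) and its partner Mlxip (0.012, adjusted p = 0.863) were not called. None of the 4 was called over days 0 to 6 (Mxd4 adjusted p = 0.115, Mga 0.130), where 1 rose and 1 fell at an unadjusted p under 0.05 and 0 were called with voom weights.

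Mxd4 had log2 values of 5.19, 7.51, 9.31, 8.78, 9.59, 9.70 and 8.93 across days 0 to 6. All later days lay far above day 0, where it had 19 reads. It was 22.8-fold higher on day 5 (log2 difference 4.51, interval 3.86 to 5.25) and its slope over days 0 to 5 was 0.81 ± 0.18 (SE, limma adjusted p = 0.0120), called also with each library left out. The slope was 0.47 without day 0 (adjusted p = 0.0496) and 0.50 with quantile normalization (adjusted p = 0.00783). Per length it was at 35.6 RPKM on day 5 and 1.56 RPKM on day 0, and on day 5 it was above Mxi1 (7.69), Mnt (16.05) and the sum of Myc and Mycn (24.1). Its promoter (GRCm38.p6, chr5:34187711-34187960, minus strand) is shown beside that of Mnt, with a CACGTG in capitals 219 bases before the start.

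Mxd4 promoter: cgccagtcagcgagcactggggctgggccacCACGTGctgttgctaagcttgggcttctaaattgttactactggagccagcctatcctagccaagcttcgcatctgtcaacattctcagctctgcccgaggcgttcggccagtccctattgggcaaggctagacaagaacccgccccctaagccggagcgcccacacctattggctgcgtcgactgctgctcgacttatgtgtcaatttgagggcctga

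Mga had log2 values of 12.27, 11.86, 11.67, 11.46, 11.68, 11.45 and 8.67 across days 0 to 6. Its slope over days 0 to 5 was −0.14 ± 0.042 (adjusted p = 0.0316), and the call was lost without day 0, day 1, day 4 or day 5 (adjusted p up to 0.217). The genes below the filter have no test. Mycl1, which encodes L-Myc, the remaining activating Myc protein, had log2 values of 6.53, 7.57, 9.33, 8.06, 7.56, 7.76 and 4.04 across days 0 to 6, with its high on day 2, at 9.32 RPKM. Mxd1, another Max-binding repressor, was at 8.99 on day 5 and 7.63 on day 0, 2.57-fold higher. Mxd3 had 6.30, 7.64, 6.88, 6.16, 6.16, 6.81 and 9.14 across days 0 to 6, highest on day 6. Mlxipl, a glucose-sensing partner of Mlx, had 5.90, 7.23, 7.28, 6.42, 6.16, 6.16 and 4.63 across days 0 to 6.

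Genes known from other systems to be activated by Myc fell in most cases over days 0 to 5. Of 37 listed, all in the table, 35 passed the filter, and 30 fell and 1 rose, beside 26.8% of all genes falling and 25.7% rising. Over days 0 to 6, 7 fell and 0 rose, beside 3.78% and 1.6%. The 0 was also 0 at an unadjusted p under 0.05 and with voom weights, and 1 after the length correction. The median slope of the 35 over days 0 to 5 was −0.29 log2 units per day, against −0.0012 for all genes. Their median difference from day 0 was −0.28, −0.83, −1.01, −1.28 and −1.45 across days 1 to 5, with 0 at least 2-fold lower on day 1 (1.96% of all genes) and 28 on day 5 (14.1%).

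The 6 largest falls over days 0 to 5 are named here. The ribosome assembly genes Bop1 (slope −0.65 ± 0.068, adjusted p = 0.00226) and Rrp9 (−0.59 ± 0.079) and the pseudouridine synthase gene Dkc1 (−0.54 ± 0.039) fell. So did Ccne1, cyclin E1 (−0.56 ± 0.10), Shmt2, a mitochondrial one-carbon enzyme (−0.51 ± 0.072), and Srm, spermidine synthase (−0.47 ± 0.058). Bop1 had log2 values of 12.43, 12.13, 10.82, 10.45, 9.49, 9.52 and 9.88 across days 0 to 6. It was below day 0 on each later day and lowest on days 4 and 5.

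The 1 rising gene of the list was Ccnd2, cyclin D2 (slope 0.88 ± 0.12, adjusted p = 0.00302), at 12.41 on day 5 and 8.51 on day 0. The 4 genes not called, named after their values were seen, were Nme1 (−0.12, adjusted p = 0.105), Ldha, lactate dehydrogenase (−0.14, adjusted p = 0.221), Prps2 (−0.13, adjusted p = 0.130) and Cdk4, the cyclin D kinase (0.00030, adjusted p = 0.994). Of the 30 falling genes 26 were called with each library left out. The others were Eif4e, Tfrc, Cdc25a and E2f1 (adjusted p up to 0.130), each of which lost its call without day 0. The count over days 0 to 6 rested on single libraries, at 0 without day 0, 1, 2, 3 or 4, 4 without day 5 and 30 without day 6.

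**Figure D4:**
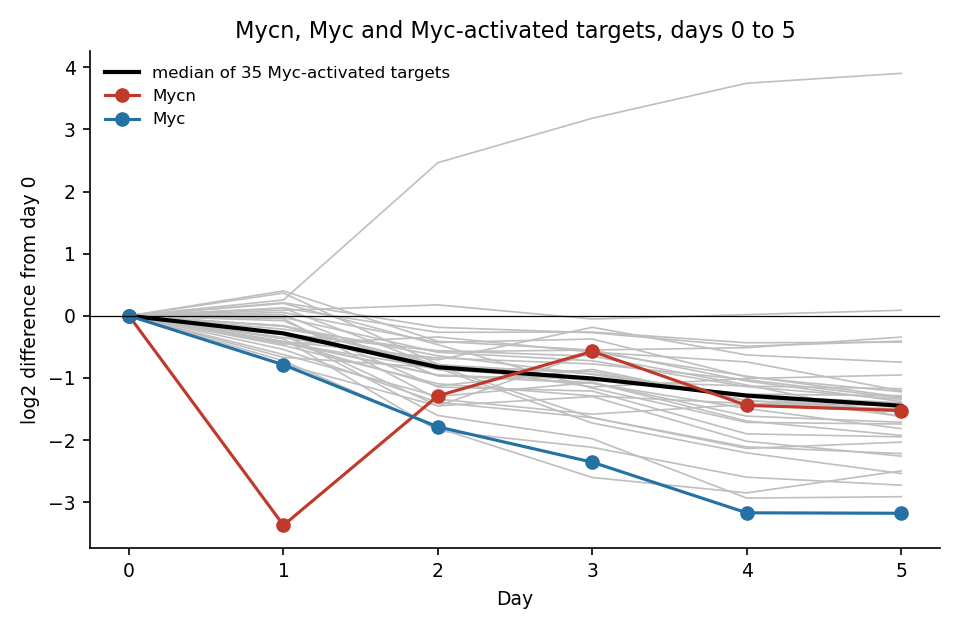
log2 difference from day 0 (vertical axis) by day (horizontal axis, days 0 to 5) for 35 Myc-activated targets past the filter (grey lines, black line their median), Mycn and Myc. The median is −0.28 on day 1, where Mycn is at −3.37, and −1.45 on day 5; the 1 grey line far above 0 is Ccnd2.

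Across days 0 to 5 the median r of the 35 with Myc was 0.96, with 33 above 0, against a median of 0.032 over all genes, and their median r with Mycn was −0.022, with 16 above 0, against −0.095. The values are a description over 6 libraries. Any gene that falls steadily has a high r with Myc, and the pluripotency markers that passed the filter had a median r of 0.97 with it.

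Falling targets were found with and without CACGTG in the promoter window. Of 30 listed targets with a window, 9 held the word (30%), beside 13.0% of the tested genes that had a window. Of these 9 targets 6 fell over days 0 to 5 (median slope −0.24). Of the 21 without it 20 fell (median slope −0.32), beside 26.8% of all genes tested. Cdk4, a gene not called in the test, held 4 copies, and its 250 bases before the start are shown for that contrast (GRCm38.p6, chr10:127063285-127063534, plus strand, CACGTG in capitals). Myc binding within genes or farther upstream lies outside such a window.

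Cdk4 promoter: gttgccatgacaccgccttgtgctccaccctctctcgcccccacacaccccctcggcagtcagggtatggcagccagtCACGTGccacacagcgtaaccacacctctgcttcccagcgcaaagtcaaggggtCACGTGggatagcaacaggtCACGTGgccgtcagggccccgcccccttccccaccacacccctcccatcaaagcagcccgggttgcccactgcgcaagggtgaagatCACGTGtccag

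Genes that Myc is known to repress were few. Of 6 listed 5 were analysed and 3 passed the filter. Of these 3, 1 rose over days 0 to 5, beside 25.7% of all genes. It was Cdkn1a, a cyclin-dependent kinase inhibitor (slope 0.85 ± 0.10, adjusted p = 0.00279), at 11.94 on day 5 and 8.24 on day 0. Cdkn1a rose over days 0 to 6 as well (adjusted p = 0.0371), where 1.6% of all genes rose. That call was lost without any 1 of days 0 to 5 (adjusted p up to 0.168). The inhibitor gene Cdkn1b had a slope of 0.26 (adjusted p = 0.0503) and the damage response gene Gadd45a one of −0.049 (adjusted p = 0.537). Below the filter, the inhibitor gene Cdkn2b was at 9.41 on day 5 and 4.11 on day 0, and Ndrg1 had 8.06, 5.99, 6.34, 8.31, 9.73, 10.27 and 8.52 across days 0 to 6.

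Genes of Myc cofactors fell or were not called. Of 12 coactivators and partners, all past the filter, 7 fell over days 0 to 5 and 0 rose, beside 26.8% of all genes falling and 25.7% rising. Wdr5 and Kat2a, 2 of them, fell over days 0 to 6 as well (3.78% of all genes), calls lost without day 0, 1, 2, 3 or 4 (adjusted p up to 0.174). The count of 0 rising by limma over days 0 to 5 was also 0 at an unadjusted p under 0.05 and 0 with voom weights. The largest falls were in Ruvbl2 (slope −0.44 ± 0.069) and Ruvbl1 (−0.43 ± 0.072), ATPases of the chromatin complexes Myc recruits, and Wdr5 (−0.44 ± 0.063), a histone methyltransferase subunit that binds Myc. Ruvbl1 stood at 10.68 on day 5 and 12.86 on day 0. Trrap, the scaffold of those complexes, was not called (0.0095, adjusted p = 0.792). Ep400 and Cdk9 lost their calls without day 0 (adjusted p up to 0.0779).

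Of 7 subunits of the Sin3 corepressor, through which Mxi1, Mnt and Mxd4 repress, 4 fell and 1 rose over days 0 to 5, beside 26.8% and 25.7% of all genes. Sap30 (slope −0.33 ± 0.055), the scaffold Sin3a (−0.21 ± 0.047) and the deacetylase gene Hdac1 (−0.21 ± 0.032) fell, and Hdac2 rose (0.11 ± 0.038, adjusted p = 0.0462). Sin3a lost its call without day 0 (adjusted p = 0.0787), and Sap18, the fourth falling gene, without any 1 of the 6 libraries (up to 0.158). Hdac2 lost it without day 1, 2, 3, 4 or 5 (adjusted p up to 0.253) and with quantile normalization or median-centring (up to 0.141). None was called over days 0 to 6, where 1 rose and 1 fell at an unadjusted p under 0.05 and 0 were called with voom weights.

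Of 8 genes for turnover of the Myc protein 7 passed the filter, and 4 fell and 1 rose over days 0 to 5, beside 26.8% and 25.7% of all genes. Usp28, a deubiquitinase that stabilises Myc (slope −0.36 ± 0.098), and the mitotic kinase gene Aurka, which shields N-Myc from degradation (−0.20 ± 0.033), fell. Gsk3b, a kinase that marks Myc for degradation, rose (0.35 ± 0.072, adjusted p = 0.00891), and it stood at 11.51 on day 5 and 9.66 on day 0. Usp28 lost its call without day 0 or day 4 (adjusted p up to 0.0889), and Huwe1, another falling gene, without day 0 or day 5 (up to 0.0575) and with quantile normalization (0.163). The ubiquitin ligase gene Fbxw7, which reads the Gsk3b mark, had a slope of 0.086 (adjusted p = 0.104). None was called over days 0 to 6, where 3 fell at an unadjusted p under 0.05 and 0 were called with voom weights.

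**Figure D5:**
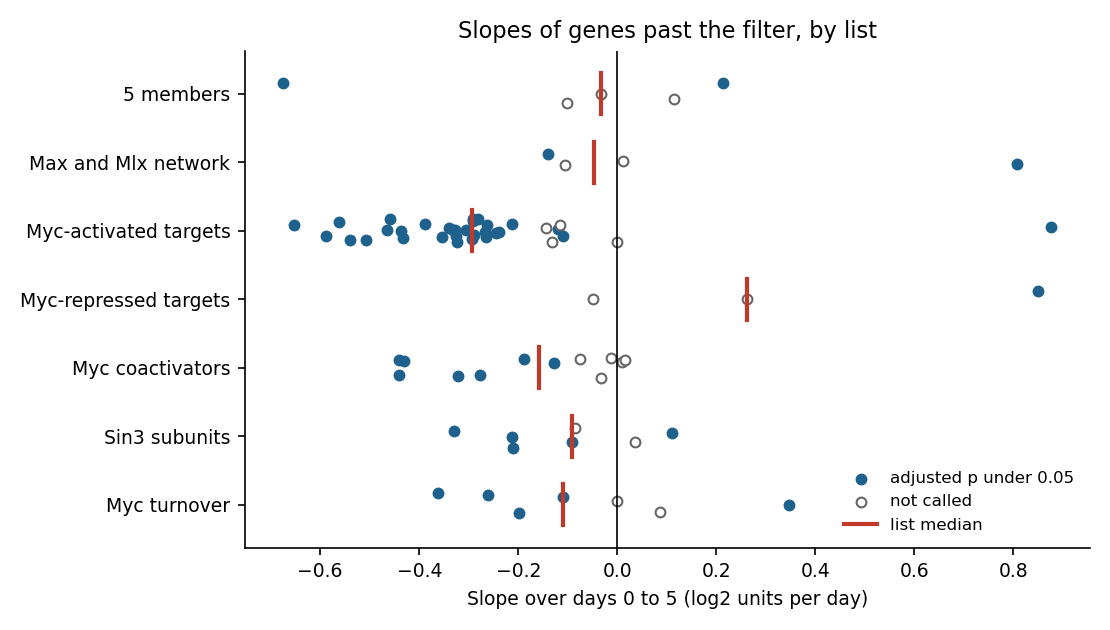
Slopes over days 0 to 5 in log2 units per day (horizontal axis) of each gene past the filter, by list (vertical axis); filled points are called at an adjusted p under 0.05, open points are not, and red bars are list medians. The 35 Myc-activated targets lie mostly below 0 with a median of −0.29, and Myc at −0.67 lies below each of them.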

How the data were processed

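Total RNA depleted of ribosomal RNA was sequenced from CCE cells, 1 library for each of days 0 to 6. The submitters' processing notes name BWA 0.7.3 and mm9. No source used here names the counting program, its strand setting or the scaling. The authors deposited log2 values per RefSeq transcript, and 100% of the values up to 1000 reads lay within 0.05 of a whole read once the scaling was undone.

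Of each symbol the transcript with the highest mean was kept, and 7242 of 12071 symbols with a mean log2 value above 8.40 (the 40th percentile) were tested. limma 3.58.1 in R 4.3.3, checked on simulated data, fitted a line on day, and day with day squared (F-test), over days 0 to 6 and days 0 to 5, with Benjamini-Hochberg adjustment over all genes tested and a threshold of 0.05. Single days have no replicate and no test. Their 95% intervals are exact binomial (Clopper-Pearson) and cover counting error only. p-values measure the spread of libraries around the fitted course, which may be technical. Named genes were the members, the other network genes, the Myc-repressed genes, and in the longer lists the called genes with the largest slopes (up to 6 targets and 3 genes of each other list in each direction), plus the 4 genes most like each member; the uncalled genes of the lists were named after their values were seen. Some list genes are counted and not reported here by name. The members and lists were chosen with earlier results of these data known. Promoters are from RefSeq (GRCm38.p6), matched for 5847 of 7242 genes, and GENCODE vM21 was used for overlapping genes. Alternatives were other filters, normalizations, a pseudocount, a transcript length correction, averaged transcripts, voom weights and leaving out each library.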

Additional observations from a re-analysis of the deposited data

How the results depend on the processing

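Of the members, 1 was called on a line over days 0 to 6, against 0 with the filter at the 60th percentile, 0 with quantile normalization, 2 with the length correction and 0 to 2 with a library left out. The curved course over days 0 to 6 called 1, against 0 at the 60th percentile, 2 with the length correction and 0 to 4 with a library left out. Over days 0 to 5 the line called 2 and the curve 2, against 0 and 0 at the 60th percentile, where Myc and Mxi1 were not tested. The curve called 1 to 2 with a library left out. Line and curve each called 3 with quantile normalization and with median-centring, where Max was called too (F-test adjusted p = 0.0375 and 0.0237). With a library left out, slopes over days 0 to 6 ran from −0.063 (without day 0) to 0.21 for Mxi1, also −0.038 without day 5, and from −0.46 to 0.11 (without day 6) for Mnt, and over days 0 to 5 from −0.28 to 0.35 (without day 0) for Mycn, so their sign turned. Myc-activated targets falling over days 0 to 6 numbered 7, against 3 with median-centring, 14 with the length correction and 0 to 30 with a library left out, and those rising 0, against 1 with the length correction and 0 to 1. At 1.5-fold in place of 2-fold, the members past it from day 0 were 2 on day 1 (Mycn and Myc, both lower) and 2 on day 3 (Myc lower, Mxi1 higher). On day 2 Mxi1, 1.69-fold higher, joined Mycn and Myc, which were lower. On day 4 all 5 were past it, with Mycn, Myc and Max lower and Mxi1 and Mnt higher. Max (1.52-fold) and Mnt (1.51-fold) were only just past it that day. After the length correction Max (log2 difference −0.45), Mxi1 (0.58) and Mnt (0.31) were under 1.5-fold on day 4. So was Mxi1 on day 2 (0.43) and day 3 (0.45). At 4-fold there were 0 on day 2, 1 on day 4 and 1 on day 5 (Myc, lower, on both days). The shares of all genes at 1.5-fold and 4-fold were not counted, so these member counts cannot be set against the whole table. Over all genes, 116 rose and 274 fell over days 0 to 6, against 311 and 628 with no filter, 249 and 342 with median-centring, 744 and 739 with the length correction, 219 and 344 with quantile normalization, and 0 to 1858 and 0 to 1943 with a library left out. At the 60th percentile 70 rose. Over days 0 to 5, 1858 rose and 1943 fell, against 3132 and 2662 with no filter, 1622 and 2348 with median-centring, 1191 rising at the 60th percentile, and 1038 to 2005 and 1240 to 1960 with a library left out (1038 and 1281 without day 0, 1128 and 1240 without day 4). The curve called 2535 genes over days 0 to 6, against 4836 with no filter, 1672 at the 60th percentile and 0 to 5682 with a library left out, and 3794 over days 0 to 5, against 5795 with no filter and 2250 to 3762. The causes were not tested. Depth limits the day 6 values most, with a median of 90 reads per transcript. No paired analysis was possible because each day has 1 library.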
